A study of Mus musculus with 14 samples.

Results

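Gene expression was compared in embryoid bodies, the aggregates in which mouse embryonic stem (ES) cells differentiate, after 24 h of induction of ER71/Etv2, GATA2 and Scl (the product of Tal1). The comparison holds 6 of the 14 arrays of the series: 3 arrays of induced cells at day 3 (induced 24 h) and 3 of control cells at day 3. The members are the 19938 genes measured on these arrays. Induced cells received doxycycline at 1 µg/ml from day 2 to day 3, and control cells received none. Replicates 1 and 2 of each group came from the ES cell line iEGS and replicate 3 from the line iB1. The labels give the genotype of the induced cells as co-expression of the 3 factors and that of the control cells as wild type, although both carry the same line names. The sample descriptions and the design text name Etv2 and GATA2 but not Scl, so the induction of Scl rests on the titles and genotypes. All cells were differentiated in serum with ascorbic acid, without LIF, after growth on PMEF feeder cells. A further 6 arrays at day 2.5 (3 control and 3 after 12 h of induction) entered the fit and are used below only to see how the effect changed with time. Cells that received doxycycline but no factors are not analysed here, so every difference between the groups includes any effect of doxycycline itself. The design text speaks of independent experiments and does not say how they were separated, so the p-values measure the spread between these arrays.

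Etv2 is an ETS family transcription factor needed for the first endothelial and blood cells of the mouse embryo, and it binds enhancers of genes such as Tek, Cdh5 and Fli1. GATA2 is a zinc finger factor that binds GATA motifs, and Scl is a basic helix-loop-helix factor that works in complexes with Lmo2 and GATA factors. At the stage sampled here, embryoid bodies pass through a state like the primitive streak, the region where pluripotent epiblast becomes mesoderm and endoderm under Nodal, Wnt and FGF signals. From the mesoderm that arises there, some cells become hemangiogenic precursors of blood and endothelium, and others form heart, muscle and further tissues.

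After 24 h of induction 1088 of the 19938 genes (5.46%) were called, that is they had a Benjamini-Hochberg adjusted p under 0.05 in limma. Of these, 405 were higher (2.03% of the genes) and 683 were lower (3.43%). The change was at least 2-fold for 193 of the higher and 266 of the lower genes. The 3 induced arrays lay entirely above or entirely below the 3 control arrays for 1087 of the 1088. Over all genes the 3 induced arrays lay above the controls for 7.6% and below them for 10.9%. The median log2 change of all genes was -0.00404, with a 5th percentile of -0.53 and a 95th percentile of 0.47. The induced arrays varied more among themselves than the control arrays, with a pooled SD over genes of 0.339 against 0.21 on the log2 scale. Replicate 3 of the induced group correlated least with the other arrays (mean r = 0.966, against 0.976 or more for each of the others). Replicate 1 of that group was next (0.976), and without it 1889 genes were called. Array weights, which limma sets lower for arrays that vary more, were 0.27, 3.32 and 0.318 for induced replicates 1, 2 and 3. Without induced replicate 3, 847 of the 1088 genes were also called. A fit of only the 6 arrays called 669 genes (266 higher and 403 lower), of which 665 were among the 1088. The fits above treat the arrays as unpaired. With the replicate number as a block, which pairs them, 1565 genes were called (610 higher and 955 lower), among them all 1088.

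Summed marker levels described what the 2 groups of arrays held. The summed linear level of 5 measured streak and mesoderm markers was 3223 to 3758 on the control arrays and 446 to 601 on the induced arrays. For 6 endothelial markers the sums were 262 to 334 and 982 to 2078, and for 6 blood markers 136 to 160 and 255 to 364. Kdr belongs to both the streak and mesoderm set and the endothelial set, so the sums of these sets are not independent. The sums of 6 pluripotency markers fell from 3123 to 3828 in the controls to 1626 to 2023. Sums of linear levels rest mostly on the brightest markers, and not all markers were called. Called lower were 4 of the 5 streak and mesoderm markers and 3 of the 6 pluripotency markers. Called higher were 4 of the 6 endothelial and 2 of the 6 blood markers, and 4 of the blood markers lay below the 40th percentile of mean level. For 15 fibroblast markers, which the PMEF feeder cells would carry, the sums were 585 to 716 in the controls and 698 to 923 after induction. Of these 15 markers 1 was called higher, Thy1 (0.98 ± 0.25, limma adjusted p = 0.0342), and 1 lower. Thy1 lost its call without induced replicate 2 or 3 or any control array (adjusted p of 0.0594 to 0.174), which left 0 called higher, and the part of feeder cells in the results was not tested. These arrays read RNA of whole embryoid bodies, so fewer cells of a type and less RNA per cell cannot be told apart anywhere below.

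All of the 3 induced factors were higher after 24 h. Gata2 had log2 values of 6.29, 5.74 and 6.11 in the control and 10.01, 10.03 and 9.94 after induction. This is a log2 change of 3.95 ± 0.18 (limma standard error, n = 3 arrays per group), or 15.4-fold (limma adjusted p = 1.09e-08). Every standard error given with a change is of this kind and rests on 1 spread per gene, shared by the 12 arrays fitted. It can understate the spread of genes that varied more on the induced 24 h arrays, such as Tek (SD of 0.711 there and 0.173 in the control). Etv2 had values of 7.85, 8.05 and 7.55 in the control and 9.73, 9.83 and 9.73 after induction, a change of 1.94 ± 0.19 (limma adjusted p = 1.47e-05). Etv2 was thus already well above the middle of the arrays in the control cells, where the array median was 5.53 to 5.58. Tal1 rose from 4.88, 5.45 and 5.35 in the control to 7.38, 7.72 and 7.49 after induction, a change of 2.30 ± 0.24 (limma adjusted p = 2.4e-05). The probe sets do not tell RNA of the inserted factors from RNA of the cells' own genes.

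**Figure D1:**
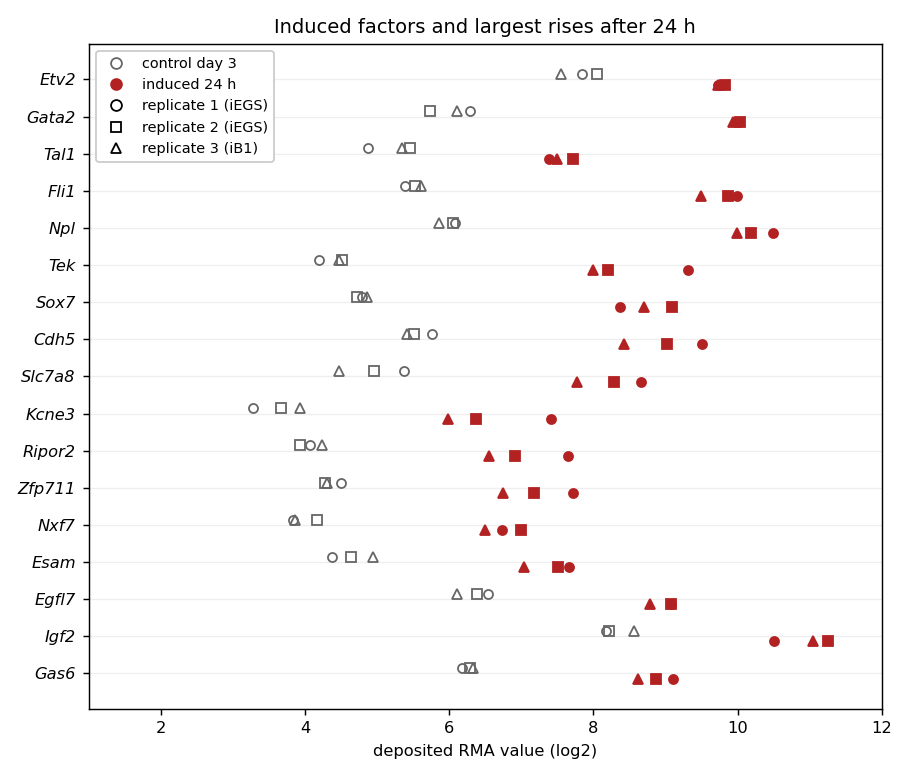
Deposited RMA values (log2, horizontal axis) of the 3 induced factors and of the other genes among the 15 largest rises, on each control day 3 array (open grey) and each induced 24 h array (filled red). Symbols give the replicate. In every gene shown the 3 induced arrays lie to the right of the 3 control arrays, and for Gata2 the 3 induced arrays nearly coincide.

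The largest rise of any called gene was that of Fli1, an ETS factor of blood and endothelial cells. Its log2 values were 5.39, 5.52 and 5.61 in the control and 9.99, 9.86 and 9.49 after induction, a change of 4.27 ± 0.17 or 19.3-fold (limma adjusted p = 4.5e-09). Every induced array was far above every control array, and the 3 controls lay close together. The 15 largest rises also held Gata2, the SOX factor gene Sox7 and 5 genes of the endothelial surface or its signals: Tek, Cdh5, Esam, Egfl7 and Gas6, the last a ligand of the TAM receptor kinases. Igf2, a fetal growth factor, rose by 2.61 ± 0.20, from 8.18, 8.22 and 8.56 in the control to 10.51, 11.26 and 11.04 after induction (limma adjusted p = 1.43e-06). The remaining 6 were Npl, an enzyme that cleaves sialic acid (4.22 ± 0.16), Slc7a8, a transporter of neutral amino acids (3.30 ± 0.28), Kcne3, a potassium channel subunit (2.96 ± 0.30), Ripor2, an inhibitor of RhoA (2.96 ± 0.24), Zfp711 (2.86 ± 0.23) and Nxf7 (2.79 ± 0.15). The values of Npl were 6.08, 6.05 and 5.86 in the control and 10.48, 10.18 and 9.99 after induction.

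The gene lists used from here on were chosen with earlier results of these data known. Their counts and medians therefore describe the listed members and are no test of a class. Over all genes 2.03% were called higher and 3.43% lower. Among transcription factors of endothelium, 9 of the 20 measured members were called higher and 2 lower, with a median log2 change of 0.59. Among them were 2 SOX factors of this lineage. Sox7 went from 4.79, 4.72 and 4.86 in the control to 8.36, 9.09 and 8.70 after induction, a change of 3.92 ± 0.21 (limma adjusted p = 5.41e-08). Sox18, which acts in blood and lymphatic vessels, went from 5.61, 6.35 and 6.02 in the control to 8.21, 8.87 and 8.12 after induction, a change of 2.41 ± 0.22 (limma adjusted p = 7.86e-06). Both had no overlap between the groups. Sox17, the third member of their subgroup, had a change of 0.05 ± 0.20 and was not called (chosen after its values were seen). Of the ETS family, Ets1 changed by 1.53 ± 0.17, Ets2 by 1.81 ± 0.16 and, chosen after their values were seen, Erg by 1.52 ± 0.19 and Elk3 by 1.50 ± 0.17. Each of these 4 was called (limma adjusted p = 1.5e-04 or less). Among the ETS members that were not called (chosen after their values were seen), Etv6, Elf1 and Elf4 had changes between -0.07 and 0.27. The 2 members called lower were Prox1, the regulator of lymphatic identity (-1.10 ± 0.20), and Foxc1 (-0.68 ± 0.18), both chosen after their values were seen. In a fit of the 6 arrays alone Prox1 was called and Foxc1 was not (limma adjusted p = 0.0219 and 0.123).

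Of the receptors and ligands of endothelium, 10 of the 28 measured members were called higher and 3 lower, with a median log2 change of 0.39. The angiopoietin receptor gene Tek had log2 values of 4.20, 4.52 and 4.48 in the control and 9.32, 8.20 and 8.0 after induction. Replicate 1 was the highest induced array by more than 1 log2 unit, and all 3 lay above every control. The change was 4.10 ± 0.30, or 17.2-fold (limma adjusted p = 8.47e-07). Ptprb, the phosphatase that restrains Tek signalling, went from 4.48, 3.91 and 4.44 in the control to 7.38, 6.29 and 5.89 after induction, a change of 2.24 ± 0.28 (limma adjusted p = 1.49e-04). Ramp2, the coreceptor that makes an adrenomedullin receptor with Calcrl, went from 6.46, 6.39 and 6.64 in the control to 8.70, 9.0 and 8.77 after induction, a change of 2.33 ± 0.15 (limma adjusted p = 2.78e-07). Calcrl itself changed by 1.58 ± 0.17 (limma adjusted p = 3.3e-05, chosen after its values were seen). Kdr, the VEGF receptor that marks hemangiogenic mesoderm, had values of 7.37, 6.77 and 7.11 in the control and 8.33, 7.47 and 7.32 after induction, a change of 0.62 ± 0.26 that was not called (limma adjusted p = 0.252) but was with the replicate number as a block (adjusted p = 0.021). Its induction effect at 12 h, against the control of day 2.5, was 1.96 ± 0.26. The induced mean of Kdr was 7.02 at 12 h and 7.71 at 24 h, while the control mean went from 5.06 to 7.09. The change of its effect was not called (-1.34 ± 0.37, limma adjusted p = 0.247). The other VEGF receptor genes Flt1 and Flt4 changed by 1.17 ± 0.24 and 1.06 ± 0.26 and were called (chosen after their values were seen), Flt4 not so in a fit of the 6 arrays alone (limma adjusted p = 0.0754). The 3 members called lower belong to chemokine and apelin signalling. Cxcr4, the receptor of Cxcl12, went from 8.23, 8.12 and 8.33 in the control to 6.08, 6.73 and 6.41 after induction, a change of -1.82 ± 0.16 (limma adjusted p = 5.63e-06). Apln, which encodes apelin, went from 7.47, 7.75 and 7.29 in the control to 5.60, 6.05 and 5.31 after induction, a change of -1.85 ± 0.19 (limma adjusted p = 2.19e-05), and its receptor gene Aplnr, chosen after its values were seen, changed by -1.48 ± 0.30 (limma adjusted p = 0.00832).

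The listed genes of endothelial junctions and surface moved in 1 direction: 15 of the 30 measured members were called higher and 0 lower. Their median log2 change was 0.60, and the log2 change of all 30 was above 0. Cdh5, the cadherin of endothelial adherens junctions, had values of 5.76, 5.52 and 5.42 in the control and 9.50, 9.02 and 8.43 after induction, a change of 3.42 ± 0.23 (limma adjusted p = 4.72e-07). Esam, an adhesion molecule of endothelial tight junctions, went from 4.37, 4.64 and 4.95 in the control to 7.66, 7.51 and 7.03 after induction, a change of 2.75 ± 0.19 (limma adjusted p = 6.86e-07). Egfl7, a secreted vascular matrix protein, went from 6.54, 6.39 and 6.11 in the control to 9.07, 9.07 and 8.79 after induction, a change of 2.63 ± 0.14 (limma adjusted p = 6.58e-08). The 3 genes share a pattern in which the lowest induced array is replicate 3 and still lies 2 or more log2 units above the highest control array. Gja4, the gap junction protein connexin 37, went from 5.06, 4.40 and 4.30 in the control to 7.14, 7.22 and 7.0 after induction, a change of 2.54 ± 0.23 (limma adjusted p = 7.85e-06). Tspan18 changed by 1.86 ± 0.16 (limma adjusted p = 3.06e-06). Pecam1, the adhesion molecule CD31, had values of 5.76, 5.10 and 5.42 in the control and 6.86, 6.09 and 5.75 after induction, a change of 0.81 ± 0.35 that was not called (limma adjusted p = 0.259), although it was with the replicate number as a block (adjusted p = 0.00442). The members that were not called ranged from 0.06 to 0.81.

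Promoter windows were looked up for Fli1, Tek, Sox7, Cdh5, Esam, Egfl7, Ramp2 and Gja4, which led these groups, and 3 of the 8 genes matched the RefSeq promoter table (GRCm38.p6): Tek, Egfl7 and Gja4. A window runs from 250 bases before to 50 after a gene's start. The windows of Tek and the first of the 3 of Egfl7 are shown because they hold motifs of the induced factors, in capitals. The Tek window (chr4:94739039-94739338, plus strand) holds 1 match to AGATAA, a form of the GATA motif. The Egfl7 window (chr2:26580833-26581132, plus strand) holds 3 matches to AGGAAG, a form of the ETS motif, counting its reverse complement CTTCCT.
Tek: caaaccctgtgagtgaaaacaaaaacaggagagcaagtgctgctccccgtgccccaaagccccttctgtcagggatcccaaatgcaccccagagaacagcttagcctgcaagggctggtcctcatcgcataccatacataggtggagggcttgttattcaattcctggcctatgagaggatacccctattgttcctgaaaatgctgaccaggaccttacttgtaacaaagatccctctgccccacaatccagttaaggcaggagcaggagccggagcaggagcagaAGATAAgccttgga
Egfl7: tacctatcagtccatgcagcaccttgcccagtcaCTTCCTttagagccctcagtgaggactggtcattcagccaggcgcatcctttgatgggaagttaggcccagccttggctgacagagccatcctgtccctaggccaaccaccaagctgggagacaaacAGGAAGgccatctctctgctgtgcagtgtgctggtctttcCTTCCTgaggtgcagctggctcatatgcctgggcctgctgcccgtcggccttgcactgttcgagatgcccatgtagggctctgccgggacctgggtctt
The second Egfl7 window held 2 AGGAAG matches, and the third held none, as did the window of Gja4. On either strand AGGAAG was in 33.4% of the 19177 windows of all measured genes, in 38.9% of the 437 windows of genes called higher and in 31% of the 686 windows of genes called lower. CGGAAG, the other ETS form searched, was in 22.1%, 13.3% and 13.6% of these windows. AGATAA was in 9.25%, 8.92% and 7% of them, and CAGATG, an E-box form bound by Scl complexes, in 14%, 15.3% and 13.1%. The ETS forms differ in their first base, and the GATA and E-box forms share the letters AGAT. These shares are descriptions without a test.

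Blood transcription factors rose as well: 12 of the 21 measured members were called higher and 1 lower, with a median log2 change of 0.71. Lmo2, the adaptor that joins Scl to GATA factors, went from 6.42, 6.15 and 6.46 in the control to 8.89, 7.96 and 8.30 after induction, a change of 2.04 ± 0.26 (limma adjusted p = 1.82e-04). Runx1, needed for definitive blood cells, went from 5.70, 5.46 and 5.66 in the control to 7.76, 7.31 and 6.91 after induction, a change of 1.72 ± 0.19 (limma adjusted p = 3.85e-05). Both groups were apart for each gene. Gfi1b, a repressor of the erythroid and megakaryocyte lineages, changed by 1.65 ± 0.16, Nfe2 by 1.53 ± 0.22 and Hhex by 1.48 ± 0.21 (limma adjusted p = 4.6e-04 or less). Chosen after their values were seen, Gata1 changed by 0.90 ± 0.20 and Spi1 by 1.26 ± 0.17, and both were called. The member called lower was Bcl11a, a regulator of lymphoid and globin genes (-1.17 ± 0.15, limma adjusted p = 1.61e-04, chosen after its values were seen). The partners of Scl among the E proteins, Tcf3 and Tcf12, had changes of -0.45 and -0.31 and were not called, nor was the cofactor Ldb1 at -0.12 (chosen after their values were seen). In the list of blood transcription factors the count called higher became 7 without control replicate 1, instead of 12.

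In the list of surface and signalling genes of blood cells, 5 of the 22 measured members were called higher and 0 lower, with a median log2 change of 0.34. In this list 13 of the 22 lay below the 40th percentile of mean level on the arrays, against 5 of the 21 blood transcription factors. RMA understates changes of dim genes, and whether this bears on the count was not tested. Lcp1, an actin bundling protein of leukocytes, went from 5.45, 5.47 and 5.36 in the control to 7.50, 6.84 and 6.60 after induction, a change of 1.56 ± 0.25 (limma adjusted p = 0.00124). Pf4, a megakaryocyte chemokine whose level was among the dim ones, went from 2.89, 2.76 and 2.93 in the control to 3.87, 3.99 and 3.94 after induction, a change of 1.07 ± 0.13 (limma adjusted p = 1.07e-04). The other called members were Laptm5 (1.22 ± 0.30), Cd34 (0.86 ± 0.19) and Epor (0.59 ± 0.15). Itga2b, the integrin CD41 of the first blood progenitors, had values of 4.51, 5.0 and 4.80 in the control and 5.83, 5.36 and 5.05 after induction and was not called (0.64 ± 0.25, limma adjusted p = 0.202). Kit had a change of -0.22 ± 0.20 and was not called. Of the 10 measured globin and erythroid genes 0 were called higher and 1 was lower, Car2, a carbonic anhydrase (-0.86 ± 0.16). The embryonic globin Hbb-bh1 had values of 2.77, 2.82 and 3.07 in the control and 2.65, 3.06 and 2.88 after induction. The groups overlapped, and 7 of these 10 genes lay below the 40th percentile of mean level on the arrays. With only the 6 arrays fitted, Epor (limma adjusted p = 0.104) lost the call. Leaving out 1 array ended the call of Laptm5 without induced replicate 2 or control replicate 2 or 3 (adjusted p of 0.104 to 0.121), Cd34 without induced replicate 2 or control replicate 1 or 3 (adjusted p of 0.0512 to 0.0707) and Epor without induced replicate 2 or 3 or any control array (adjusted p of 0.0699 to 0.14). Against 5 called higher, the list of blood cell surface and signalling genes had 2 without induced replicate 2 or control replicate 3 and 3 without control replicate 1 or 2.

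The primitive streak and organizer list had the lowest median of the 34 lists: 0 of the 15 measured members were called higher and 9 lower, with a median log2 change of -2.21. At an unadjusted p under 0.05 in limma 0 of them were higher, and each of the 12 other lists with 0 members called higher had between 0 and 2 there. Mesp1, the first marker of cardiovascular mesoderm, went from 9.15, 9.32 and 8.84 in the control to 4.49, 5.14 and 4.61 after induction, a change of -4.36 ± 0.23 (limma adjusted p = 5.41e-08). Mixl1, a homeobox factor of the streak, went from 10.57, 10.38 and 10.34 in the control to 6.65, 6.54 and 6.56 after induction, a change of -3.84 ± 0.25 (limma adjusted p = 4e-07). Eomes, the T-box factor that acts upstream of both mesoderm and endoderm, went from 10.32, 10.29 and 10.06 in the control to 6.99, 7.32 and 7.11 after induction, a change of -3.08 ± 0.20 (limma adjusted p = 3.89e-07). On all 3 induced arrays these genes lay 2.5 or more log2 units below the lowest control. Foxa2 and Lhx1, factors of the anterior streak and definitive endoderm, changed by -3.53 ± 0.23 and -3.96 ± 0.30, and Sp5, a target of Wnt signalling, by -3.03 ± 0.21 (limma adjusted p = 1.35e-06 or less). The induced arrays of all 6 also stood below the mean of the day 2.5 control: the mean of Mesp1 there was 6.56, that of Mixl1 9.23 and that of Eomes 9.66. Members not called ranged from -1.01 to 0.17.

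**Figure D2:**
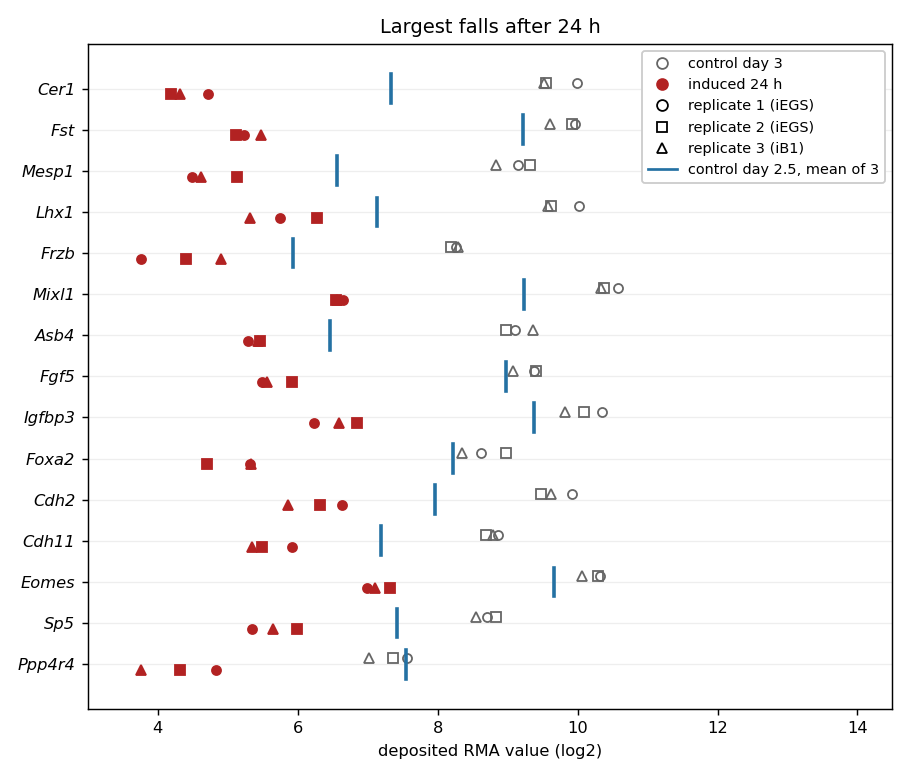
Deposited RMA values (log2, horizontal axis) of the genes with the 15 largest falls on each control day 3 array (open grey) and induced 24 h array (filled red), with the mean of the 3 control arrays of day 2.5 as a blue bar. In every gene the 3 induced arrays lie to the left of the 3 controls, and to the left of the day 2.5 mean.

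Nodal and activin signalling genes fell at several levels: 0 of the 15 measured members were called higher and 7 lower, with a median log2 change of -0.61. Nodal, the ligand, went from 7.70, 7.64 and 7.31 in the control to 6.01, 6.27 and 5.74 after induction, a change of -1.54 ± 0.19 (limma adjusted p = 9.98e-05). Its coreceptor gene Tdgf1 went from 12.30, 12.33 and 12.40 in the control to 10.19, 10.37 and 9.97 after induction, a change of -2.17 ± 0.13 (limma adjusted p = 2.29e-07). The induced arrays of both lay below all controls. Among the secreted inhibitors of the pathway were the 2 largest falls of any called gene. Cer1, which binds Nodal, went from 9.99, 9.55 and 9.52 in the control to 4.72, 4.19 and 4.32 after induction, a change of -5.28 ± 0.32 or 38.8-fold lower (limma adjusted p = 2.13e-07). Fst, the activin antagonist follistatin, went from 9.97, 9.91 and 9.60 in the control to 5.24, 5.12 and 5.48 after induction, a change of -4.55 ± 0.19 or 23.4-fold lower (limma adjusted p = 5.52e-09). The feedback inhibitors Lefty1 and Lefty2 changed by -1.94 ± 0.23 and -1.99 ± 0.27 (limma adjusted p = 3.11e-04 or less). The receptor gene Acvr2b was called lower (-0.75 ± 0.18, limma adjusted p = 0.0268, chosen after its values were seen), but not in a fit of the 6 arrays alone (limma adjusted p = 0.112). The signal transducers Smad2 and Smad3 had changes of -0.03 and -0.20 and were not called (also chosen after their values were seen).

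FGF pathway genes fell in the same arrays: 0 of the 20 measured members were called higher and 11 lower, with a median log2 change of -0.91. The ligand gene Fgf5, a marker of the epiblast, went from 9.37, 9.41 and 9.08 in the control to 5.49, 5.92 and 5.56 after induction, a change of -3.63 ± 0.18 or 12.4-fold lower (limma adjusted p = 2.27e-08). Fgf8, the ligand of the streak, went from 7.99, 8.22 and 7.44 in the control to 6.01, 6.82 and 6.05 after induction, a change of -1.59 ± 0.23 (limma adjusted p = 5.24e-04). The 4 receptor genes Fgfr1, Fgfr2, Fgfr3 and Fgfr4 were not called, with changes of -0.25 to 0.22 (chosen after their values were seen). Among the members of the list with the largest falls were targets and inhibitors of FGF and ERK signalling, while the inhibitor gene Spry1 had a change of 0.20 and was not called (chosen after its values were seen). Etv5, an ETS factor of the PEA3 group, went from 10.08, 9.97 and 9.81 in the control to 7.42, 7.68 and 6.54 after induction, a change of -2.74 ± 0.24 (limma adjusted p = 4.07e-06), and its relative Etv1 changed by -2.85 ± 0.18 (limma adjusted p = 2.78e-07). Dusp6, the phosphatase that inactivates ERK, went from 9.77, 9.94 and 9.65 in the control to 7.33, 7.66 and 7.08 after induction, a change of -2.43 ± 0.19 (limma adjusted p = 1.57e-06). Spry4, an inhibitor of the receptor signal, changed by -2.01 ± 0.21 (limma adjusted p = 2.95e-05). Replicate 3 was the lowest induced array for Etv5, Dusp6 and Spry4, and for each gene all 3 induced arrays lay more than 1 log2 unit below the controls.

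**Figure D3:**
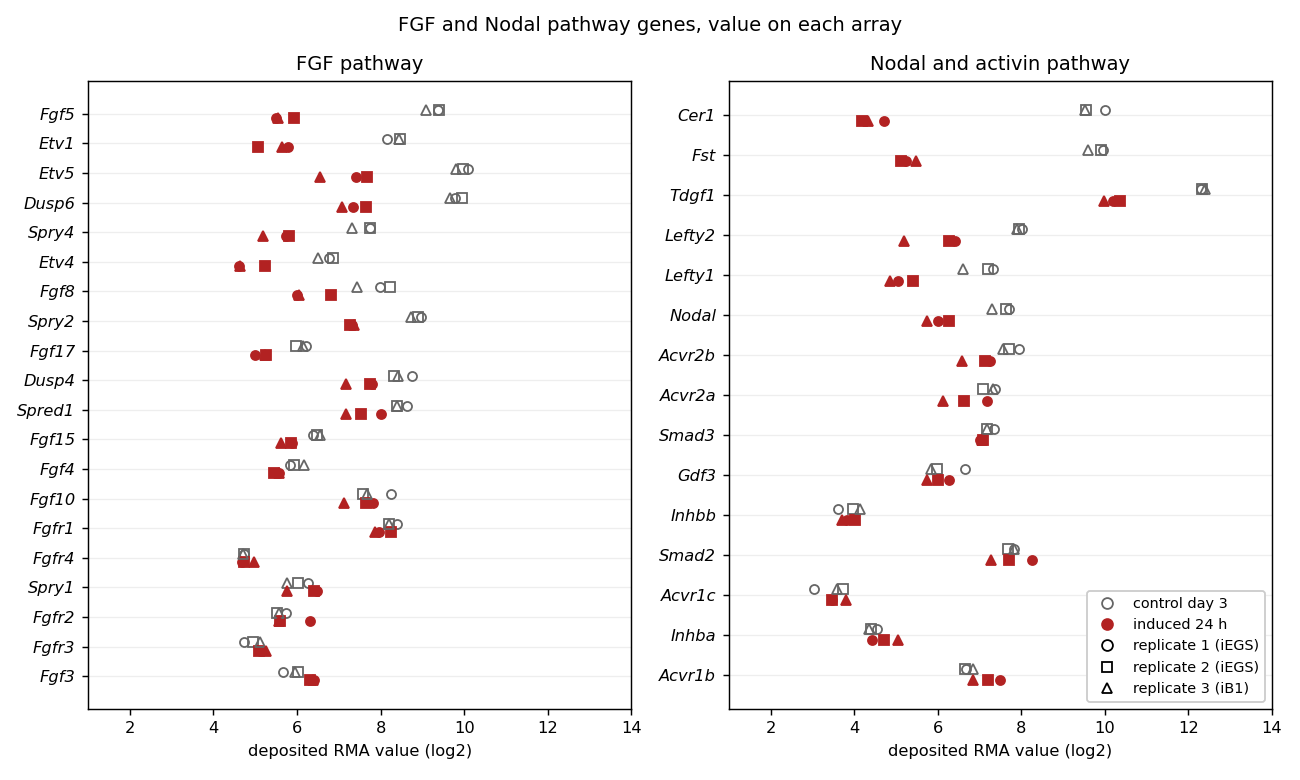
Deposited RMA values (log2, horizontal axes) of the 20 measured FGF pathway genes (left) and the 15 measured Nodal and activin genes (right) on each control day 3 array (open grey) and induced 24 h array (filled red), ordered by the change. The genes at the top, from Fgf5 and Cer1 down, have the induced arrays well to the left of the controls, and the FGF receptor genes show groups that overlap or lie close together.

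Of the Wnt ligands, 0 of the 11 measured members were called higher and 4 lower, with a median log2 change of -0.05. With the replicate number as a block 1 was called higher, Wnt2b (0.72 ± 0.23, adjusted p = 0.0456, chosen after its values were seen). Wnt8a went from 6.85, 6.84 and 6.92 in the control to 4.70, 4.43 and 5.0 after induction, a change of -2.16 ± 0.20 (limma adjusted p = 8.64e-06), and Wnt5a from 6.67, 6.15 and 5.96 in the control to 4.52, 4.20 and 4.68 after induction, a change of -1.80 ± 0.21 (limma adjusted p = 8e-05). Wnt3, the ligand that starts the streak, changed by -0.90 ± 0.21 and Wnt5b by -0.77 ± 0.15. Of the receptors and antagonists, 1 of the 19 measured members was called higher and 8 lower, with a median log2 change of -0.35. Frzb, a secreted Wnt antagonist, went from 8.26, 8.19 and 8.29 in the control to 3.76, 4.40 and 4.91 after induction, a change of -3.89 ± 0.33 (limma adjusted p = 3.1e-06). Sfrp1, of the same family, changed by -1.76 ± 0.24 and Dkk1, which blocks the Wnt coreceptors, by -1.18 ± 0.26. Of the receptors, Fzd2 changed by -1.43 ± 0.21, while Fzd4, a receptor of vascular cells, was the 1 member called higher: it went from 4.87, 4.87 and 4.62 in the control to 6.62, 5.97 and 6.09 after induction, a change of 1.44 ± 0.18 (limma adjusted p = 1.09e-04). Of the 9 measured target genes 1 was called higher and 1 lower, or 2 lower with the block, where Ccnd1 was added (-0.57 ± 0.18, adjusted p = 0.0287, chosen after its values were seen). Lef1 went from 8.45, 7.93 and 8.02 in the control to 6.42, 6.25 and 6.22 after induction, a change of -1.84 ± 0.19 (limma adjusted p = 2.62e-05), Lgr5 rose from 6.29, 5.99 and 5.78 in the control to 8.15, 7.56 and 7.47 after induction, a change of 1.70 ± 0.27 (limma adjusted p = 0.00122), and Axin2, the most general of the targets, had a change of -0.12 ± 0.22 and was not called. A fit of the 6 arrays alone did not call Wnt3 (limma adjusted p = 0.0811). The call rested on single arrays for Wnt3 without control replicate 1 or 2 (adjusted p of 0.0629 to 0.0873) and Dkk1 without control replicate 1 (adjusted p = 0.061).

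In the BMP pathway 3 of the 19 measured members were called higher and 7 lower, with a median log2 change of -0.13. The ligand genes split. Bmp4, a signal needed for ventral mesoderm and blood, rose from 7.62, 7.32 and 7.54 in the control to 8.78, 9.04 and 9.14 after induction, a change of 1.49 ± 0.15 (limma adjusted p = 2.2e-05). Bmp2 changed by -1.12 ± 0.28 and Bmp7 by -1.06 ± 0.15. Bmper, a secreted modulator of BMP, changed by -1.16 ± 0.19 (limma adjusted p = 0.00171). Of the target genes, Id2 went from 6.69, 7.07 and 6.73 in the control to 8.04, 8.60 and 8.46 after induction, a change of 1.54 ± 0.17 (limma adjusted p = 5.37e-05), and Id1 had a change of 0.15 ± 0.17 and was not called. In the Notch pathway 0 of the 15 measured members were called higher and 5 lower, with a median log2 change of -0.02. The ligand genes Jag1 and Dll3 changed by -2.12 ± 0.20 and -1.39 ± 0.17, and Dll1 by -0.68 ± 0.15. Jag1 had values of 7.19, 6.97 and 7.21 in the control and 5.47, 4.89 and 4.67 after induction (limma adjusted p = 9.06e-06). The target Hes1 changed by -0.91 ± 0.19 and the glycosyltransferase gene Lfng by -0.85 ± 0.18. The receptor Notch1 had a change of 0.31 ± 0.23 and was not called. With only the 6 arrays fitted, Lfng (limma adjusted p = 0.061) and Dll1 (limma adjusted p = 0.0698) lost the call. With 1 array left out, the call was lost for Bmp2 without induced replicate 2 or 3 or control replicate 1 or 3 (adjusted p of 0.101 to 0.143), Hes1 without control replicate 1 (adjusted p = 0.052) and Lfng without control replicate 1 or 3 (adjusted p of 0.0536 to 0.065). Leaving out 1 array ended the call of Dll1 without induced replicate 2 or 3 or control replicate 1 or 2 (adjusted p of 0.0508 to 0.0767). Members called lower in the list of BMP pathway numbered 4 without control replicate 1, against 7 above. The count called lower in the list of Notch pathway was 3 in the fit of the 6 arrays and 2 without control replicate 1, instead of 5.

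Most pluripotency factors were not called. Of this list, 1 of the 17 measured members was called higher and 4 lower, with a median log2 change of -0.14. With the replicate number as a block 2 were called higher, the second being Dppa2 (0.55 ± 0.30, adjusted p = 0.0122, chosen after its values were seen). Nanog went from 9.97, 10.18 and 10.0 in the control to 8.16, 8.34 and 7.68 after induction, a change of -1.99 ± 0.17 (limma adjusted p = 3.4e-06). Pou5f1, which encodes Oct4, had values of 10.996, 10.91 and 10.52 in the control and 10.01, 10.28 and 10.08 after induction, a change of -0.68 ± 0.15 that was called (limma adjusted p = 0.015), and stayed high on every induced array. Sox2 changed by -1.17 ± 0.30 and Sall4 by -0.64 ± 0.13, and Tbx3 was called higher at 0.82 ± 0.16. The factors of naive ES cells Klf4 and Esrrb, chosen after their values were seen, had changes of 0.17 and -0.14 and were not called. Of the epiblast list, 0 of the 12 measured members were called higher and 7 lower, with a median log2 change of -0.67. Pim2, a kinase gene, went from 9.87, 9.89 and 9.39 in the control to 6.95, 7.27 and 6.48 after induction, a change of -2.81 ± 0.21 (limma adjusted p = 1.1e-06). Zic2 and Zic5, zinc finger factors of 1 family, changed by -2.69 ± 0.21 and -2.20 ± 0.15. The de novo DNA methyltransferase gene Dnmt3b changed by -1.13 ± 0.18 and E-cadherin, Cdh1, by -0.81 ± 0.15. Of 13 measured neural genes 0 were called higher and 3 lower: Nes (-1.18 ± 0.29), Sox11 (-0.93 ± 0.13) and Ncam1 (-0.74 ± 0.17). Sox1 and Pax6, which mark neural tissue, had changes of -0.10 ± 0.16 and 0.41 ± 0.15 and were not called. A fit of the 6 arrays alone did not call Sox2 (limma adjusted p = 0.0746), Pou5f1 (limma adjusted p = 0.0836), Sall4 (limma adjusted p = 0.0763) or Ncam1 (limma adjusted p = 0.0884). The call rested on single arrays for Sox2 without induced replicate 2 or 3 or any control array (adjusted p of 0.0675 to 0.166), Pou5f1 without control replicate 1 or 2 (adjusted p of 0.0773 to 0.09) and Sall4 without control replicate 1 (adjusted p = 0.0607). With 1 array left out, the call was lost for Nes without induced replicate 3 or any control array (adjusted p of 0.054 to 0.103) and Ncam1 without control replicate 1 (adjusted p = 0.0924). In the list of pluripotency factors the count called lower became 1 in the fit of the 6 arrays and without control replicate 1 and 2 without control replicate 2, instead of 4. Against 3 called lower, the list of neural fate genes had 1 without control replicate 1.

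The microRNA genes that fell belong to clusters known from pluripotent cells. Of 300 measured microRNA genes, 0 were called higher by limma (9 were at an unadjusted p under 0.05) and 6 lower, and the median change of all 300 was 0.08. Over all genes 2.03% were called higher and 3.43% lower, so microRNA genes as a class were not called lower more often than other genes. The 6 were Mir363 and the 5 genes of the miR-302 cluster. The 3-prime mature sequences that the RefSeq table holds for them are printed with the seed, bases 2 to 8, in capitals, to show which share it.
miR-302b-3p: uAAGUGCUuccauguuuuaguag
miR-302d-3p: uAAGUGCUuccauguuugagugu
miR-302c-3p: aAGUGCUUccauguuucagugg
miR-367-3p: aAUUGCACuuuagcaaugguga
miR-363-3p: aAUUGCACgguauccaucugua
The mature sequences of miR-302b and miR-302d share the seed AAGUGCU, which 3 others in the table, miR-291a-3p, miR-294-3p and miR-295-3p, also have. That of miR-302c is AGUGCUU. The mature sequences of miR-367 and miR-363 come from different clusters, on chromosomes 3 and X, and share the seed AUUGCAC, which is also that of miR-25, miR-32, miR-92a and miR-92b.

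Mir367 had log2 values of 6.0, 7.79 and 7.08 in the control and 3.75, 4.66 and 4.04 after induction, a change of -2.80 ± 0.51 (limma adjusted p = 0.0036). Mir302a, Mir302b, Mir302c and Mir302d changed by -2.36 ± 0.47, -1.60 ± 0.23, -2.27 ± 0.30 and -1.94 ± 0.32 (limma adjusted p = 0.00627 or less). Replicate 1 was the lowest control array for each of these 5, and all induced arrays lay below it. With replicate 2 left out of all groups, Mir367, Mir302a and Mir302d lost the call (limma adjusted p = 0.106, 0.215 and 0.106). Mir367 also lost it with replicate 3 left out of all groups (limma adjusted p = 0.0659). The 9 mature sequences of this cluster in the table lie on the plus strand at chr3:127545238-127545800, inside the span of Larp7 (chr3:127536714-127553349, GRCm38.p6). The strand of Larp7 was not compared, so its RNA is not taken as the transcript that carries them. Larp7 itself had values of 9.36, 9.35 and 9.51 in the control and 9.30, 9.06 and 8.82 after induction, a change of -0.34 ± 0.15 that was not called (limma adjusted p = 0.25, chosen after its values were seen). Mir363 went from 6.26, 7.18 and 7.72 in the control to 4.55, 4.01 and 3.82 after induction, a change of -2.93 ± 0.30 (limma adjusted p = 1.93e-05). Its neighbours in the cluster on chromosome X were not called: Mir92-2, Mir106a, Mir20b and Mir19b-2 had changes of -0.21, -0.18, 0.03 and -0.38 (chosen after their values were seen). Of the genes whose mature sequence shares the seed of miR-367, Mir25, Mir32 and Mir92b had changes of -0.00, 0.55 and 0.37 and were not called (likewise chosen after). The probe sets read the transcripts of these loci, not the mature microRNAs.

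Genes of other mesoderm and of endoderm changed in part. Of 13 measured cardiac regulators 0 were called higher and 3 lower. Pdgfra, the PDGF receptor of cardiac and paraxial mesoderm, went from 7.80, 7.34 and 8.06 in the control to 4.90, 5.06 and 4.90 after induction, a change of -2.78 ± 0.21 (limma adjusted p = 1.39e-06). Gata4 went from 7.96, 7.44 and 7.64 in the control to 5.81, 6.26 and 6.16 after induction, a change of -1.60 ± 0.17 (limma adjusted p = 2.84e-05), and Isl1 changed by -1.12 ± 0.23. Nkx2-5 had a change of 0.03 ± 0.23 and was not called. Of the contractile genes of heart and smooth muscle, 0 of the 16 measured members were called higher and 6 lower, with a median log2 change of -0.20. Actc1 and Myl7 changed by -2.41 ± 0.21 and -2.08 ± 0.17, and the smooth muscle genes Cnn1 and Tagln by -1.88 ± 0.17 and -0.99 ± 0.25. In paraxial mesoderm, 1 of the 15 measured members was called higher and 5 lower, with a median log2 change of -0.05. Mesp2, next to Mesp1 in the genome and active in somite formation, went from 7.21, 7.24 and 7.25 in the control to 5.23, 5.48 and 5.34 after induction, a change of -1.88 ± 0.17 (limma adjusted p = 8.04e-06). Msgn1 and Tbx6 changed by -1.43 ± 0.19 and -1.03 ± 0.18. Of the 16 measured endoderm genes 2 were called higher and 2 lower: Apoe (0.86 ± 0.14), Trf (0.78 ± 0.14), Rbp4 (-0.69 ± 0.17) and Epcam (-0.57 ± 0.14). The markers Afp and Ttr had changes of 0.23 and 0.27 and were not called. The largest change among the members not called was that of Spink1 (-1.45 ± 0.48, limma adjusted p = 0.118). With the replicate number as a block 4 members of this list were called lower, adding Spink1 (adjusted p = 0.00833) and Foxa1 (-0.67 ± 0.20, adjusted p = 0.0374), both chosen after their values were seen. The summed level of 6 endoderm markers, Foxa2 and Afp among them, was 562 to 722 on the control arrays and 279 to 304 on the induced arrays, and Foxa2 was the 1 marker of these called. Of 16 measured Hox and Cdx genes 0 were called by limma and 1 was higher at an unadjusted p under 0.05, and 15 of them lay below the 40th percentile of mean level. With only the 6 arrays fitted, Isl1 (limma adjusted p = 0.065), Rbp4 (limma adjusted p = 0.0752) and Epcam (limma adjusted p = 0.136) lost the call. Leaving out 1 array ended the call of Isl1 without control replicate 1 or 3 (adjusted p of 0.0575 to 0.0577), Tagln without induced replicate 2 or 3 or any control array (adjusted p of 0.0826 to 0.129) and Rbp4 without induced replicate 3 or control replicate 1 or 3 (adjusted p of 0.0786 to 0.118). The call rested on single arrays for Epcam without induced replicate 3 or any control array (adjusted p of 0.0506 to 0.107).

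**Figure D4:**
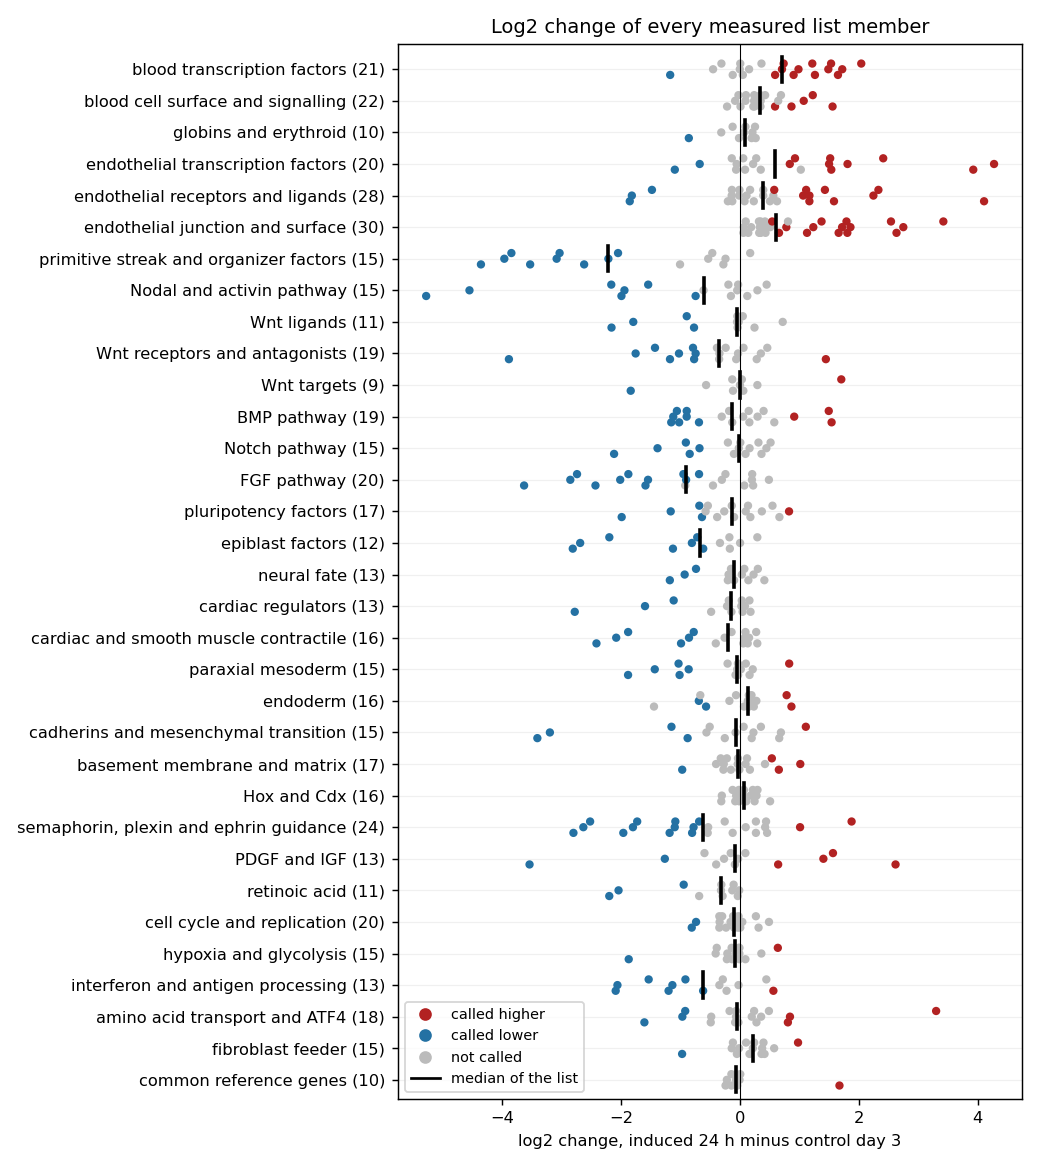
Log2 change after 24 h of induction (horizontal axis) of every measured member of 33 gene lists, with the number of measured members after each name. Red and blue points were called higher and lower at an adjusted p under 0.05, grey points were not called, and the black bar is the median of the list. The endothelial junction list lies wholly to the right of 0, and the median of the primitive streak list is -2.21.

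Of the cadherins, Cdh2 and Cdh11 were among the 15 largest falls. Cdh2, N-cadherin, went from 9.92, 9.48 and 9.62 in the control to 6.64, 6.31 and 5.85 after induction, a change of -3.41 ± 0.22 or 10.6-fold lower (limma adjusted p = 4e-07). Cdh11, a cadherin of mesenchymal cells, went from 8.86, 8.69 and 8.80 in the control to 5.91, 5.50 and 5.34 after induction, a change of -3.20 ± 0.22 (limma adjusted p = 6.18e-07). For both genes the groups were more than 2 log2 units apart. In the list of cadherins and mesenchymal transition that holds them, 1 of the 15 measured members was called higher and 4 lower, with a median log2 change of -0.07. With the block 2 were called higher, the second being the keratin gene Krt18 (0.66 ± 0.19, adjusted p = 0.0444, chosen after its values were seen). Zeb2, a repressor of E-cadherin, was the member called higher (1.11 ± 0.20), and Twist1 changed by -1.15 ± 0.24. Snai2 had a change of -0.07 ± 0.20 and was not called. Of the semaphorin, plexin, ephrin and Slit genes, 2 of the 24 measured members were called higher and 12 lower, with a median log2 change of -0.62. The receptor Epha1 went from 9.09, 9.08 and 8.95 in the control to 6.24, 6.21 and 6.26 after induction, a change of -2.80 ± 0.16 (limma adjusted p = 7.98e-08), Slit2 changed by -2.63 ± 0.22, Sema6a by -2.52 ± 0.17 and Sema6d by -1.96 ± 0.19. Plxnd1, the semaphorin receptor of endothelium, rose from 6.19, 5.67 and 5.74 in the control to 8.31, 7.69 and 7.23 after induction, a change of 1.88 ± 0.26 (limma adjusted p = 3.36e-04). The other member called higher was Efnb2, the ephrin of arteries (1.01 ± 0.12, limma adjusted p = 1.22e-04, chosen after its values were seen). Of 17 measured matrix genes, the basement membrane members Col4a1 (0.65 ± 0.13), Col4a2 (0.53 ± 0.14) and Nid1 (1.01 ± 0.26) were called higher and Nid2 (-0.97 ± 0.20) lower. A fit of the 6 arrays alone did not call Nid1 (limma adjusted p = 0.0949), Col4a1 (limma adjusted p = 0.0541) or Col4a2 (limma adjusted p = 0.15). With 1 array left out, the call was lost for Twist1 without control replicate 1 (adjusted p = 0.052), Nid1 without induced replicate 1 or 2 or control replicate 2 or 3 (adjusted p of 0.0701 to 0.168) and Nid2 without control replicate 1 (adjusted p = 0.0515). Leaving out 1 array ended the call of Col4a2 without induced replicate 3 or any control array (adjusted p of 0.0861 to 0.13). Members called higher in the list of basement membrane and matrix genes numbered 0 in the fit of the 6 arrays and 1 without control replicate 2 or 3, against 3 above.

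The insulin-like growth factors rose and 2 of their binding proteins fell. Igf1 went from 4.50, 4.57 and 4.64 in the control to 6.11, 5.85 and 5.95 after induction, a change of 1.40 ± 0.14 (limma adjusted p = 1.97e-05), beside the rise of Igf2 given above. Igfbp3, a binding protein of both factors, went from 10.35, 10.10 and 9.83 in the control to 6.23, 6.85 and 6.58 after induction, a change of -3.54 ± 0.22 (limma adjusted p = 2.78e-07). Igfbp2 changed by -1.26 ± 0.24, and Igfbp4 moved the other way at 1.56 ± 0.19. In this list with the PDGF genes, 4 of the 13 measured members were called higher and 2 lower, with a median log2 change of -0.09. In retinoic acid metabolism 0 of 11 measured genes were called higher and 3 lower. Cyp26a1, the enzyme that breaks retinoic acid down, went from 8.94, 8.45 and 8.72 in the control to 6.69, 6.42 and 6.40 after induction, a change of -2.20 ± 0.29 (limma adjusted p = 2.13e-04). The binding proteins Crabp1 and Crabp2 changed by -2.04 ± 0.18 and -0.95 ± 0.25. The synthesis enzyme Aldh1a2 had a change of -0.32 ± 0.14 and was not called. With only the 6 arrays fitted, Crabp2 (limma adjusted p = 0.064) lost the call. The call rested on single arrays for Crabp2 without any induced array or control replicate 2 or 3 (adjusted p of 0.0619 to 0.186).

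In the list of interferon response and antigen processing genes, 1 of the 13 measured members was called higher and 7 lower, with a median log2 change of -0.62. The member called higher changed by 0.56, and a fit of the 6 arrays alone called 0 higher. Irf1, an interferon regulatory factor, went from 8.43, 8.33 and 8.18 in the control to 6.53, 6.17 and 5.97 after induction, a change of -2.09 ± 0.20 (limma adjusted p = 9.56e-06). The immunoproteasome subunit gene Psmb8 went from 7.46, 7.16 and 7.25 in the control to 4.99, 5.50 and 5.20 after induction, a change of -2.06 ± 0.16 (limma adjusted p = 1.99e-06), and Psmb10 changed by -1.54 ± 0.18. Tapbp, which loads peptides on class I molecules, changed by -1.14 ± 0.18 and Ly6e by -1.20 ± 0.23. B2m, the light chain of class I molecules, had a change of -0.29 ± 0.16 and was not called. Of amino acid transport and ATF4 genes, 3 of the 18 measured members were called higher and 3 lower, with a median log2 change of -0.05. Slc7a8 went from 5.37, 4.96 and 4.48 in the control to 8.65, 8.28 and 7.77 after induction (limma adjusted p = 3.06e-06), and Slc7a5, also a transporter of large neutral amino acids, changed by 0.84 ± 0.16. Slc7a3, a transporter of cationic amino acids, moved the other way at -1.61 ± 0.17. The stress factor Atf4 had a change of -0.07 and was not called (chosen after its values were seen).

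Proliferation and metabolism genes mostly were not called. Of 20 measured cell cycle genes 0 were called higher and 2 lower, Mycn (-0.81 ± 0.17) and Ccnd2 (-0.74 ± 0.16). The proliferation marker Mki67 had values of 9.78, 9.0 and 9.05 in the control and 9.79, 8.99 and 8.57 after induction, a change of -0.16 ± 0.29. Of 15 measured hypoxia and glycolysis genes Ndrg1 was called lower, from 8.66, 8.36 and 8.30 in the control to 6.10, 6.88 and 6.74 after induction, a change of -1.87 ± 0.21 (limma adjusted p = 6.13e-05), and Egln3 higher (0.64 ± 0.15). The glucose transporter Slc2a1 had a change of -0.39 ± 0.17 and was not called. Of 10 measured genes in common use as references, 9 had changes between -0.24 and 0.00 and were not called, Actb among them at -0.01 ± 0.12. The exception was Hprt, a purine salvage enzyme, which rose from 6.26, 6.09 and 6.10 in the control to 7.82, 8.27 and 7.37 after induction, a change of 1.67 ± 0.25 (limma adjusted p = 6.97e-04). A fit of the 6 arrays alone did not call Egln3 (limma adjusted p = 0.0713). With 1 array left out, the call was lost for Mycn without control replicate 1 (adjusted p = 0.0584), Ccnd2 without induced replicate 2 or control replicate 1 or 3 (adjusted p of 0.0522 to 0.0575) and Egln3 without induced replicate 2 or control replicate 2 (adjusted p of 0.0729 to 0.107).

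The 24 h effect was also set against the effect at 12 h, each taken against the control of its own day, to see which responses grew. The difference between the effects was called for 85 of the 19938 genes (0.426%). The effect was higher at 24 h for 20 genes (0.1%) and lower for 65 (0.326%). With the replicate number as a block 163 genes were called, and without replicate 1 of the day 3 control 48. Leaving a replicate number out of all groups gave 73 genes without replicate 1, 4 without replicate 2 and 2 without replicate 3. Few of the calls below therefore stand without replicate 2 or 3. Among genes that rose, Cdh5 had an effect of 1.16 ± 0.23 at 12 h and 3.42 ± 0.23 at 24 h, a difference of 2.26 ± 0.33 (limma adjusted p = 0.00554). Tek went from 1.53 ± 0.30 to 4.10 ± 0.30 (limma adjusted p = 0.0118), and Sox7 from 1.87 ± 0.21 to 3.92 ± 0.21 (limma adjusted p = 0.00554). Ctla2a, which encodes a cysteine protease inhibitor, had an effect of -0.27 ± 0.21 at 12 h and 2.59 ± 0.21 at 24 h (limma adjusted p = 8.62e-04). The induced factors themselves were not called for a change of effect: that of Etv2 was 3.11 ± 0.19 at 12 h and 1.94 ± 0.19 at 24 h, with a difference of -1.16 ± 0.27 (limma adjusted p = 0.105).

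Streak genes were among the 65 whose effect was lower at 24 h. Cer1 had an effect of -0.91 ± 0.32 at 12 h and -5.28 ± 0.32 at 24 h, a difference of -4.37 ± 0.45 (limma adjusted p = 8.62e-04). Lhx1 went from -0.45 ± 0.30 to -3.96 ± 0.30 (limma adjusted p = 0.00252) and Mesp1 from -1.80 ± 0.23 to -4.36 ± 0.23 (limma adjusted p = 0.00358). The control cells also moved in this time. Between the control days the mean log2 value of Cer1 went from 7.34 to 9.69, that of Lhx1 from 7.13 to 9.74 and that of Mesp1 from 6.56 to 9.10. The induced arrays at 24 h lay below the day 2.5 control for all 3 genes. Named genes were mostly picked by the size of their change, so a count of them does not stand for all 683 genes called lower. Of the 102 named genes called lower at 24 h, 94 had a mean below that of the day 2.5 control. The other 8 were at or above it while the control had risen: Dkk1 (0.88 above), Bmp2 (0.82), Dll1 (0.32), Cxcr4 (0.20), Bmp7 (0.16), Tbx6 (0.10), Gata4 (0.02) and Cfc1 (0.01). The genes of the miR-302 cluster had no effect past the test at 12 h, where those of Mir302c and Mir302b were 0.21 ± 0.30 and 0.05 ± 0.23, and their differences of -2.48 ± 0.42 and -1.65 ± 0.32 were called (limma adjusted p = 0.0163 and limma adjusted p = 0.0398). Myl7, the atrial myosin light chain, and Cyp26a1 likewise had effects near 0 at 12 h, of 0.10 ± 0.17 and 0.14 ± 0.29.

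**Figure D5:**
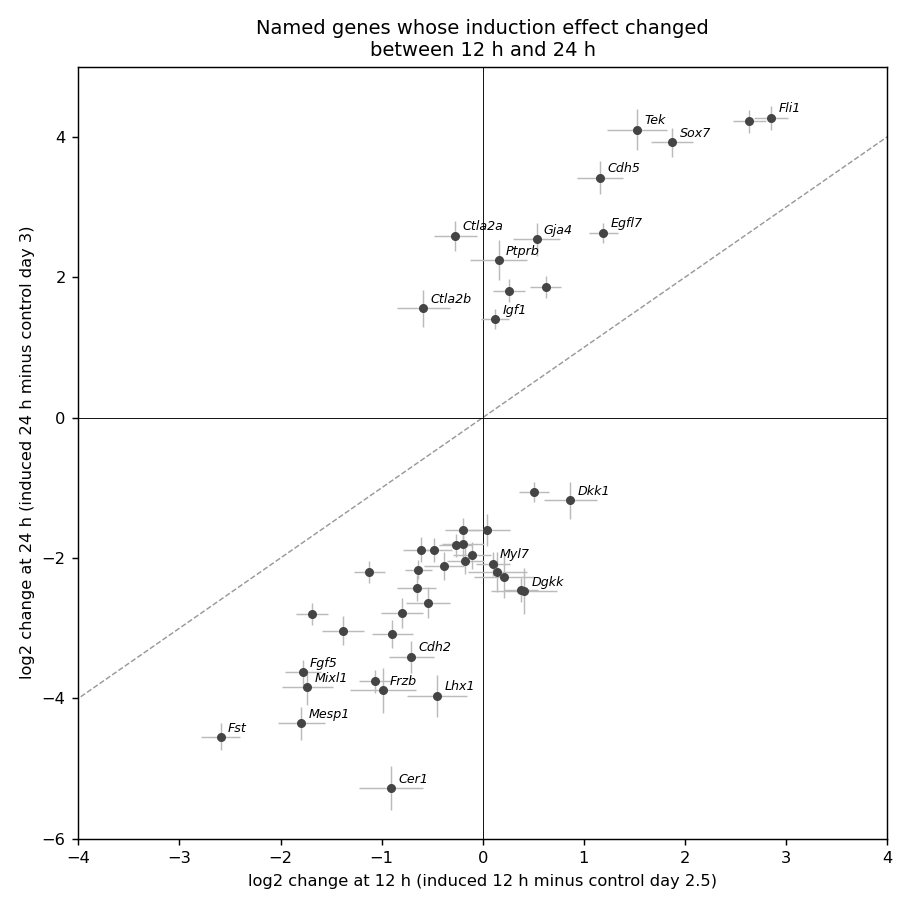
Induction effect at 24 h (vertical axis, log2) against the effect at 12 h (horizontal axis, log2) for the 46 named genes whose effect differed between the times, with standard errors from limma as bars and a dashed line where both effects are equal. Genes that rose lie above the line and genes that fell below it, with Cer1 lowest at -0.91 and -5.28. Dkk1 lies to the right of 0 at 12 h (0.87 ± 0.26) and below 0 at 24 h (-1.18 ± 0.26), as does Bmp7 (0.50 ± 0.15 and -1.06 ± 0.15), and neither was called at 12 h.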

How the data were processed

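RNA of mouse ES cell embryoid bodies was measured on 14 Affymetrix arrays after amplification of complementary DNA, per the labels' protocols. The authors deposited log2 values from RMA (Affymetrix Expression Console, as the submitters' processing notes state, without versions). RMA brings arrays toward 1 distribution, so it can remove a change that most genes share, and it understates changes of dim genes. The deposited gene values still differed in scale. Their SD over genes was 1.91 on induced 24 h replicate 3, 2.17 and 2.06 on induced replicates 1 and 2, and 2.20, 2.11 and 2.08 on the day 3 controls. Quantile normalization again called 1295 genes at 24 h. Of 35556 probe sets, 21789 had 1 symbol in the platform annotation, 1621 had several and 12146 had none listed, and 21698 of the 21789 were found in the RefSeq gene table (GRCm38.p6), which changed 0 symbols. For 999 genes with several probe sets the probe set of highest mean on the 14 arrays was used, which left 19938 genes.

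limma 3.58.1 in R 4.3.3 fitted the 12 arrays of the 4 groups with 3 arrays each by group means on log2 values (lmFit, eBayes, 8 residual and 6.05 prior degrees of freedom), with Benjamini-Hochberg adjusted p under 0.05 as the threshold. The scripts were tested on simulated data. Of 577 listed symbols in 34 lists, 546 were measured. The induction, its members and the lists were chosen with earlier results of these data known. Genes named by rule are the 3 factors, the called genes without overlap of the groups that rose (15) or fell (15) most, up to 5 called members of largest change and the first 2 members of each list, up to 8 called microRNA genes, and the 5 largest changes of effect each way, 183 in all; any other gene is marked as chosen after its values were seen. Deviations of same-numbered control and induced arrays from their group means correlated with r = 0.517, 0.157 and 0.261 across genes, so the replicate numbers were taken to pair the arrays; replicate 2 of the control correlated more with replicate 3 of the induced group (0.375). Precision is limited by the number of arrays. Alternatives were the 6 arrays alone, the replicate number as a block, the line as a covariate, other normalizations, gene filters, probe set rules, variance models, array weights and leaving out replicates or arrays; leaving out replicate 3 of both 24 h groups was added after seeing the data.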

Additional observations from a re-analysis of the deposited data

Results flagged for a closer look

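For 46 named genes the induction effect at 24 h differed from the effect at 12 h by a test of the difference itself (limma, adjusted over all genes). Over all genes this test called 85, but 4 when replicate 2 was left out of all groups and 2 when replicate 3 was. Differences below are the 24 h effect minus the 12 h effect on the log2 scale. Among genes that rose, the differences of the transcription factors were 1.42 for Fli1, 2.05 for Sox7 and 1.55 for Ets2. Those of endothelial surface and receptor genes were 2.58 for Tek, 2.26 for Cdh5, 2.08 for Ptprb, 2.01 for Gja4, 1.44 for Egfl7 and 1.24 for Tspan18. The others that rose were Ctla2a (2.86), Ctla2b (2.14), Npl (1.59) and Igf1 (1.28). Ctla2a and Ctla2b are near-identical relatives, and signal shared between their probe sets was not tested.

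Among genes that fell, those of the streak and Nodal signals were Cer1 (-4.37), Lhx1 (-3.51), Cfc1 (-2.83), Mesp1 (-2.56), Eomes (-2.19), Mixl1 (-2.11), Fst (-1.96), Sp5 (-1.65) and Tdgf1 (-1.53). Wnt, BMP, Notch and FGF genes were Frzb (-2.90), Dkk1 (-2.04), Fgf5 (-1.85), Dusp6 (-1.78), Jag1 (-1.74), Wnt5a (-1.60) and Bmp7 (-1.57). Dkk1 and Bmp7 had effects of opposite sign at the 2 times, 0.87 and 0.50 at 12 h against -1.18 and -1.06 at 24 h, and neither effect at 12 h was called (limma adjusted p = 0.197 and 0.175). The induced mean of Dkk1 was 7.10 at 12 h and 7.11 at 24 h, while the control mean went from 6.23 to 8.29. Mesoderm and muscle genes were Myl7 (-2.18), Pdgfra (-1.98), Mesp2 (-1.40), Gata4 (-1.40) and Cnn1 (-1.27). Adhesion and guidance genes were Cdh2 (-2.70), Slit2 (-2.10), Sema6d (-1.85), Cxcr4 (-1.55) and Epha1 (-1.11). The rest were Dgkk (-2.88), Asb4 (-2.70), Mir302c (-2.48), Cyp26a1 (-2.34), Crabp1 (-1.87), Mir302b (-1.65) and Zic5 (-1.08).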

How the results depend on the processing

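The counts of called genes depended most on the arrays used and on how their spread was modelled. Of the 183 named genes 0 changed direction under an alternative while called in it or in the main fit. Genes not called in either could change sign, such as Kit, which went from -0.22 to 0.02 without induced replicate 3. Of the 156 called named genes 106 kept their call under every alternative. With replicate 2 left out of all groups 42 of them lost the call, and with replicate 3 left out also 42. The lost calls given beside the results are mostly those of the 6 arrays alone and of leaving out 1 array. The 1088 genes called at 24 h (405 higher, 683 lower) became 669 (266 and 403) in a fit of the 6 arrays alone and 2634 (1188 and 1446) with array weights. Under the replicate block the higher count became 610, and the lower count 412 without replicate 3 of both 24 h groups. Leaving out replicates or single arrays gave 392 to 1889 genes, 143 to 662 higher and 248 to 1227 lower. The lowest of these came from leaving 1 replicate number out of all groups, the highest from leaving out replicate 1 of the induced group.

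For the change of effect from 12 h to 24 h, the 85 genes (20 higher, 65 lower) became 163 (36 and 127) with the replicate block and 318 (122 and 196) with array weights. They became 39 (9 and 30) with all probe sets tested. Quantile normalization again gave 129 genes, 34 of them higher, and leaving out replicate 3 of both 24 h groups gave 39 lower. Leaving out replicates or single arrays gave 2 to 109 genes, 0 to 28 higher and 1 to 84 lower. Apart from the array and replicate counts given here and beside the results, the cause of these shifts was not tested. The paired fit with the replicate block also called Kdr, Pecam1 and the list members given beside the results, and lost none of the 1088. Most members of the globin, Hox and Cdx lists and of that of blood cell surface genes had low signals. Whether this bears on their calls was not tested.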

Other observations

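Some genes outside the lists moved strongly with genes described above. All were chosen after their values were seen. Bmp6, a BMP ligand, went from 5.81, 5.62 and 5.60 in the control to 8.12, 7.76 and 7.60 after induction, a change of 2.15 ± 0.16 (limma adjusted p = 1.43e-06). Its direction was that of Bmp4 and not that of Bmp2 or Bmp7. Tal2, a close relative of Tal1, went from 4.45, 4.10 and 4.22 in the control to 5.96, 6.20 and 6.10 after induction, a change of 1.83 ± 0.23 (limma adjusted p = 1.49e-04). Apela, which encodes a second ligand of the apelin receptor, went from 8.75, 8.90 and 8.77 in the control to 6.94, 6.56 and 6.41 after induction, a change of -2.17 ± 0.17 (limma adjusted p = 1.43e-06), so both ligand genes and the receptor gene were lower. The ephrin receptor gene Epha7 changed by -2.0 ± 0.21 (limma adjusted p = 2.82e-05).

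Outside the list of interferon response and antigen processing genes, 3 further genes of this kind that fell were picked after their values were seen. How many others rose or did not change was not counted. Gbp2b, a guanylate binding protein, went from 7.83, 7.20 and 7.48 in the control to 5.06, 5.28 and 5.44 after induction, a change of -2.24 ± 0.25 (limma adjusted p = 5.11e-05). Irgm1, an immunity related GTPase, changed by -1.74 ± 0.23 (limma adjusted p = 2.24e-04), and Erap1, which trims peptides for class I molecules, by -1.69 ± 0.22 (limma adjusted p = 1.67e-04). The 3 genes had effects of -1.72, -1.73 and -1.67 at 12 h, and none was called for a change of effect.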
